A study of Mus musculus with 2 samples.

Results

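The genes described here are 10 immediate early genes of mouse liver, Fos, Fosb, Jun, Junb, Egr1, Ier2, Ier3, Myc, Btg2 and Zfp36, measured in liver RNA upon fasting and upon feeding. They were taken as every array probe, other than a control, whose RefSeq transcript belongs to one of these symbols, and each gene had 1 such probe. They were 10 of 20652 genes with a matched probe on the array, and 9 of them were among the 16346 genes whose probe was well above background, by the scanner software's call, on at least 1 array. Each of these 9 passed that call on both arrays, and Junb passed it on neither.

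The livers came from male C57BL/6J mice, which the study's methods give as 8 to 12 weeks old, kept under 12 h of light a day, and no transgene or drug is given for either group. The fasting group had no food for 16 h in one label and for 14 to 16 h overnight in another. The feeding group is given in one label as mice with food always at hand and in another as mice that ate after the fast, and here it is called feeding without a choice between these. Total RNA of 3 mice was pooled for each group, labelled with the dye Cy3 and put on 1 Agilent 4x44K Whole Mouse Genome array. With 1 pooled array for each group the spread between mice is not known, no test of a difference was possible, and every difference given here is a description of these arrays. The errors that can be given are those of the spots on an array, and in whole liver a lower signal cannot be told apart from fewer cells that make the transcript.

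Immediate early genes are transcribed within minutes of a signal, without the need for new protein, by transcription factors already present in the cell such as SRF with its ternary complex partners and CREB. Their transcripts are short-lived, and many of their products are transcription factors that act on a later wave of genes. In liver they are known for their response to partial hepatectomy, to hormones such as glucagon, glucocorticoid and insulin, and to stress during the handling of tissue.

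The DNA just before the transcription start is shown for 4 members. These are all that differed at least 2-fold and have an entry in the RefSeq promoter table of assembly GRCm38.p6. Elements known to serve immediate early transcription can be seen only where they lie within the bases shown. Of the 10 members, 7 were in that table; Egr1, Ier2 and Myc were not. The stretch is chr12:85473640-85473889 on the plus strand for Fos, chr1:134079156-134079405 on the minus strand for Btg2, chr7:28379229-28379478 on the minus strand for Zfp36 and chr4:95052223-95052472 on the minus strand for Jun, each 250 bases long and written 5′ to 3′ up to the base before the start. Capitals mark 5 of the 9 elements searched for, found on either strand. Among them are the cyclic AMP response element TGACGTCA or its core TGACG, which CREB binds. The AP-1 site TGACTCA and the CArG box, which SRF binds, are marked too. The last of those marked is the TATA box, with the letters TATAAA, while the GC box, the EGR1 site, the E-box and the FOXO site were left in lower case.
Fos: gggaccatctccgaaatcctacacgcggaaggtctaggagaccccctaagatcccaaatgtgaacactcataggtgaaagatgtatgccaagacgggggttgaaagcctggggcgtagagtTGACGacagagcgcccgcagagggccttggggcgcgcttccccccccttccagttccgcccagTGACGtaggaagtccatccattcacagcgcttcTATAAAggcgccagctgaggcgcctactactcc
Btg2: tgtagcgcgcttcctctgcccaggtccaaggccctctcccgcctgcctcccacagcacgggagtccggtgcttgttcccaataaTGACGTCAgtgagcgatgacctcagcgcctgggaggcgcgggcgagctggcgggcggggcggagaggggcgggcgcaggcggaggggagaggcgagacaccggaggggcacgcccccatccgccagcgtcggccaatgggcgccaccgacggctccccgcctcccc
Zfp36: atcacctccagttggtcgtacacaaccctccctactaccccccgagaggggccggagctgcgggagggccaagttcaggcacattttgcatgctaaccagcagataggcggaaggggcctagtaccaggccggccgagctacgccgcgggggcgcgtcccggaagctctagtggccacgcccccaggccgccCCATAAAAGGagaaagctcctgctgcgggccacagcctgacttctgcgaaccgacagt
Jun: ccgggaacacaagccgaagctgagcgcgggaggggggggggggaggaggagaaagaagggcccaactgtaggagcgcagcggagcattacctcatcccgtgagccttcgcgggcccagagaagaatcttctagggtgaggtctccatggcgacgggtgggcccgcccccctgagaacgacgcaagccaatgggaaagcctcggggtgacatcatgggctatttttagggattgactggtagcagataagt
Counted from the start site, the Fos stretch holds TGACG at -129 and -66 and TATAAA at -33. The Btg2 stretch holds the full element TGACGTCA at -166, which contains TGACG on both strands. The Zfp36 stretch holds a CArG box at -58 and an unmarked EGR1 site at -105. None of the elements set in capitals occurs in the Jun stretch. It does hold TGACATCA, a close variant of TGACGTCA that the search for exact letters did not count.

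The search covered windows from 250 bases before to 50 bases after the start, for 7 members and for all 32851 promoters of the table. TGACG, which also counts where it lies within TGACGTCA, was in 4 of the 7 member windows, those of Fos, Fosb, Junb and Btg2, and in 20.8% of all promoters. The full TGACGTCA was in 1 member window and in 1.79% of all, and the CArG box was in 1 and in 1.63%. An EGR1 site, GCGTGGGCG or GCGGGGGCG, was in those of Fosb and Zfp36 and in 3.47% of all. TATAAA was in 2 member windows, those of Fos and Junb, and in 13.6% of all, while TGACTCA was in 0 and in 5.20%. The GC box GGGCGG was in 6 member windows and in 35.7% of all promoters. It overlaps the EGR1 site of Fosb and the CArG box of Zfp36. The E-box CACGTG, the site of Myc, was in 0 member windows and in 7.15% of all, and GTAAACA, a site of FOXO factors, was in 1, that of Junb, and in 3.65%. The member windows were richer in G and C, with a median of 63.7% against 52.7% in all promoters. These matches describe the letters of the windows, and no binding was measured. Sites further than 250 bases before the start were not searched, so a count of 0 or 1 does not speak of them.

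Of the 9 members measured, 5 were at least 2-fold lower upon feeding, 0 were at least 2-fold higher and 4 did not reach 2-fold. Among all 16346 genes measured, 4.62% were at least 2-fold lower upon feeding and 3.29% were at least 2-fold higher. The median difference of the 9 members was -1.05 on the log2 scale, feeding minus fasting, against 0.00 for all genes. For a gene measured on 1 array only, a bound on the difference was used, which concerned no member. A lower signal upon feeding was seen for 8 of the 9, and Egr1 was the exception. Among all genes 45.2% had a difference below 0. Another 7.02% were set to exactly 0 where their bound came under 1-fold, and so could not count as below 0. Over genes well above background on both arrays, as the 9 members were, the median difference was -0.001. The 5 genes past 2-fold were Fos, Btg2, Zfp36, Ier2 and Jun.

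**Figure D1:**
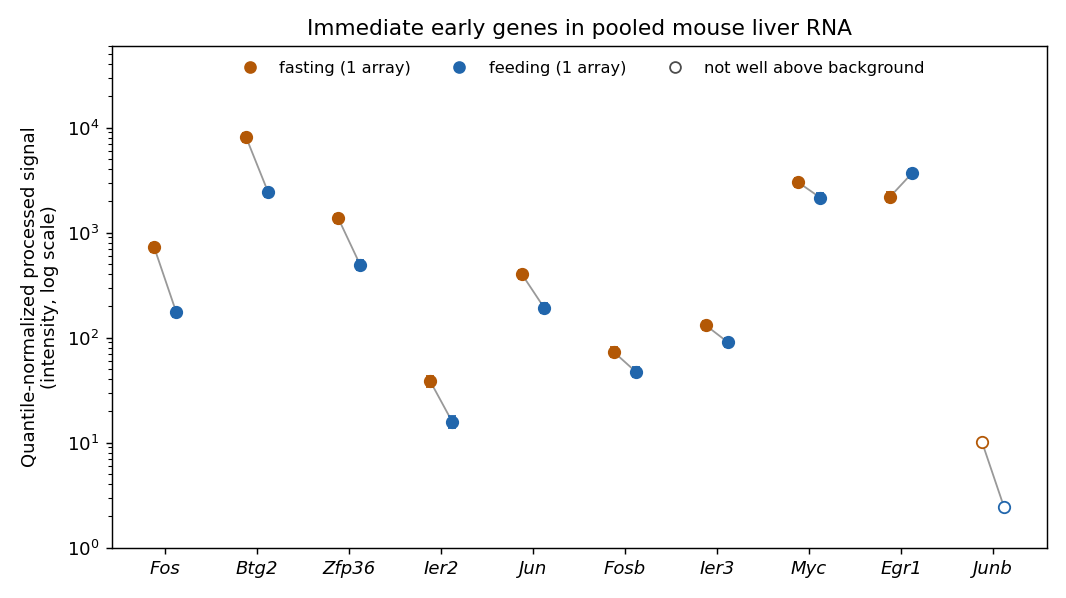
Signal of the 10 immediate early genes on the fasting array and on the feeding array, on a log scale, with bars for the spot error where they are larger than the point; open points are not well above background. The line of each gene falls from fasting to feeding except that of Egr1, and Junb is open on both arrays.

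The AP-1 factor is a dimer of a Fos protein with a Jun protein, and Fos is its most transient subunit. Its normalized signal, the background-subtracted intensity after quantile normalization between the arrays, was 729.0 upon fasting and 175.6 upon feeding. The spot error given with each difference is the error that the scanner software assigns to the signals, carried over to the log2 scale. The log2 difference of -2.05, with a spot error of 0.20, made Fos 4.15-fold lower upon feeding. Of all genes measured, 0.893% were lower by more.

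Fos is also the member whose measurement could be repeated on the array, since its probe was spotted 10 times while each other member had 1 spot. Upon fasting the processed signal of its spots, before normalization, ran from 717.1 to 808.5 with a median of 756.7 and a mean of 759.3 ± 28.4 (SD, n = 10 spots). Upon feeding it ran from 146.3 to 184.8 with a median of 158.6 and a mean of 160.4 ± 11.8 (SD, n = 10 spots). The spots of the arrays did not overlap, and the lowest fasting spot was 3.88-fold above the highest feeding spot. The scanner software marked 2 feeding spots as outliers, and the other 8 had a mean of 163.4 ± 11.3 (SD). The SD of a difference between single spots was 0.11 on the log2 scale. Spots of 1 pool are repeats of the hybridization and not of the mice.

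**Figure D2:**
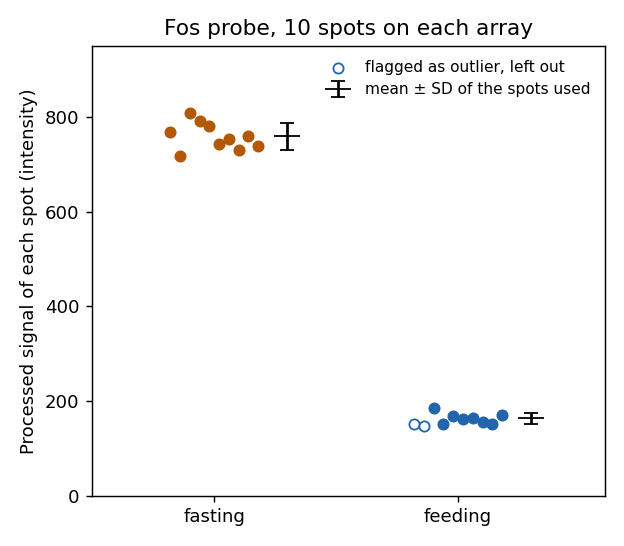
Processed signal of the 10 spots of the Fos probe on each array, on a linear axis from 0, with the mean and SD of the spots used beside them. The fasting spots lie between 717.1 and 808.5 and the feeding spots between 146.3 and 184.8, with the 2 open points left out as outliers.

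Fosb encodes a second Fos protein, with the same kind of leucine zipper. Its normalized signal was 72.7 upon fasting and 47.0 upon feeding, a log2 difference of -0.63 with a spot error of 0.22, or 1.55-fold lower. It did not reach 2-fold, and 9.60% of all genes were lower by more. Of the other genes of the AP-1 family, Fosl2, a longer-lived Fos protein, had a log2 difference of -0.66, and Jdp2, which pairs with Jun and represses AP-1 sites, was lower past 2-fold with -2.32.

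Jun, the partner that can also form homodimers, had a normalized signal of 400.3 upon fasting and 192.8 upon feeding. Its log2 difference of -1.05, with a spot error of 0.21, made it 2.08-fold lower upon feeding, and 4.23% of all genes were lower by more. Jun was therefore just past 2-fold. Normexp is a correction that subtracts the local background, then models the background that remains from all spots and adds an offset. With it the difference of Jun was -0.70 and no longer past 2-fold.

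Junb, the Jun protein that often opposes Jun, was at a processed signal of 10.7 upon fasting and 1.70 upon feeding, with spot errors of 38.2% and 99.6% of the signal. Neither array had it well above background, so no fold is given. The third Jun gene, Jund, which is counted here among the other immediate early genes although it is less inducible than Jun in many cells, was measured and had a log2 difference of -0.41.

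Egr1 encodes a zinc finger transcription factor induced by growth factor signals through SRF and its partners. Its normalized signal was 2193 upon fasting and 3679 upon feeding, the reverse of the other members measured. A log2 difference of 0.75, with a spot error of 0.20, made Egr1 1.68-fold higher upon feeding, and 6.66% of all genes were higher by more. It stayed above 0 and under 2-fold in each of the 9 settings in which values were computed, from 0.75 to 0.95. Its relative Egr2 moved the other way, with a log2 difference of -1.16, and its corepressors Nab1 and Nab2 had differences of -0.15 and 0.09.

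Myc, the transcription factor that drives growth and ribosome genes, had a normalized signal of 3026 upon fasting and 2161 upon feeding. The log2 difference was -0.49 with a spot error of 0.20, or 1.40-fold lower, and 13.5% of all genes were lower by more. This was the smallest difference among the 9 members, 2.38 times its spot error, against 10.03 times for Fos.

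Btg2, an antiproliferative protein that brings the CCR4-NOT deadenylase to mRNAs, had a normalized signal of 8104 upon fasting and 2425 upon feeding. Feeding was thus 3.34-fold below fasting, at a log2 difference of -1.74 with a spot error of 0.20. Only 1.48% of all genes were lower by more. It was past 2-fold in each of the 9 settings, between -1.74 and -1.55. As for Egr1, several of these settings could not change its value.

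Zfp36 encodes tristetraprolin, TTP, which binds AU-rich elements and speeds the decay of cytokine and immediate early mRNAs. Its normalized signal was 1383 upon fasting and 494.5 upon feeding. This was 2.80-fold lower upon feeding, or -1.48 on a log2 scale with a spot error of 0.20, and 2.23% of all genes were lower by more. Both members that act on mRNA decay, Btg2 and Zfp36, were thus past 2-fold in the same direction.

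Ier2, a nuclear protein induced by growth factors, had a normalized signal of 38.8 upon fasting and 15.9 upon feeding. The log2 difference was -1.29 with a spot error of 0.26, or 2.44-fold lower upon feeding, and 3.10% of all genes were lower by more. Its difference was -0.18 and no longer past 2-fold with normexp, in which the background model, the offset of 50 and the use of the median signal changed together, and their parts were not told apart. Before normalization the Ier2 spot had a processed signal of 42.0 over a local background of 45.0 upon fasting, and of 15.0 over 21.0 upon feeding.

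Ier3, a stress-induced protein that modulates cell death and ERK signaling, had a normalized signal of 130.7 upon fasting and 90.1 upon feeding. The log2 difference was -0.54 with a spot error of 0.21, or 1.45-fold lower. It did not reach 2-fold, and it stood at rank 1956 of the 16346 genes ordered from the largest decrease.

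**Figure D3:**
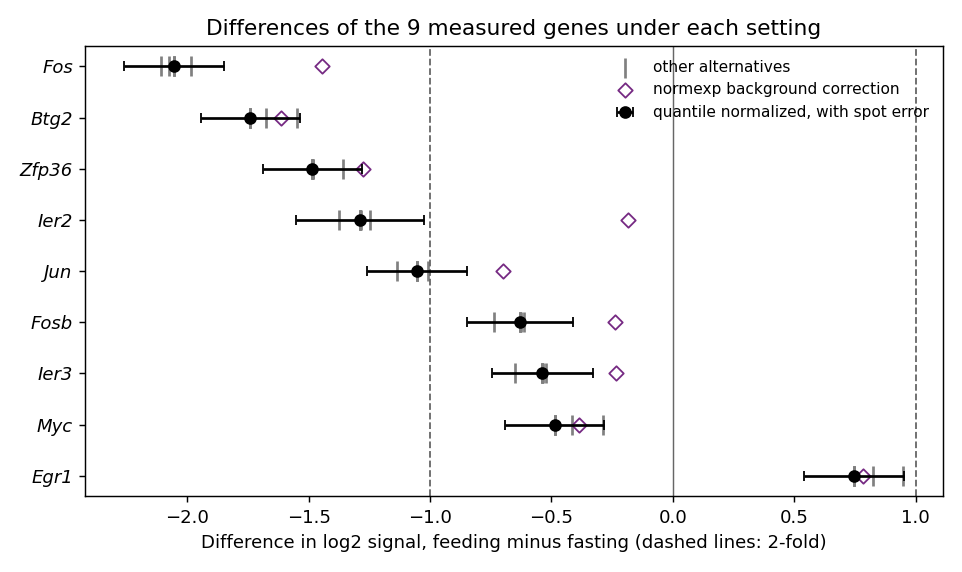
Log2 difference of each measured member, feeding minus fasting, with its spot error as a bar, and the values under the other settings as marks; dashed lines are 2-fold. Fos, Btg2 and Zfp36 lie below the lower dashed line under every setting drawn, while Ier2 and Jun are above it after normexp (open diamonds), at -0.18 and -0.70.

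The same differences can be set beside the precision of the arrays at like brightness. Among probes spotted 10 times, the SD of a difference between single spots was 0.44 on the log2 scale in the dimmest of 3 equal groups of genes, 0.14 in the middle group and 0.10 in the brightest. Ier2, Fosb and Ier3 fell in the dimmest group, where the differences of Fosb and Ier3, -0.63 and -0.54, were nearest to the spread of single spots. Fos, Jun and Zfp36 fell in the middle group, and Btg2, Egr1 and Myc in the brightest. Within these groups 6.11%, 4.06% and 3.71% of genes were at least 2-fold lower upon feeding.

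The local background differed between the arrays, with a median over all spots of 30.0 upon fasting and 22.0 upon feeding, and so did the share of transcript spots well above background, 63.1% and 72.3%. Around the members it was 22.5 to 47.0 upon fasting and 21.0 to 25.0 upon feeding. The fasting spots with the most background were those of Egr1, Myc and Ier2, at 47.0, 46.0 and 45.0. The background was varied only through the normexp correction, together with its offset. After it Fos was at -1.44, Btg2 at -1.61 and Zfp36 at -1.28, all still past 2-fold, and 3 of the 9 members were past 2-fold in place of 5.

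**Figure D4:**
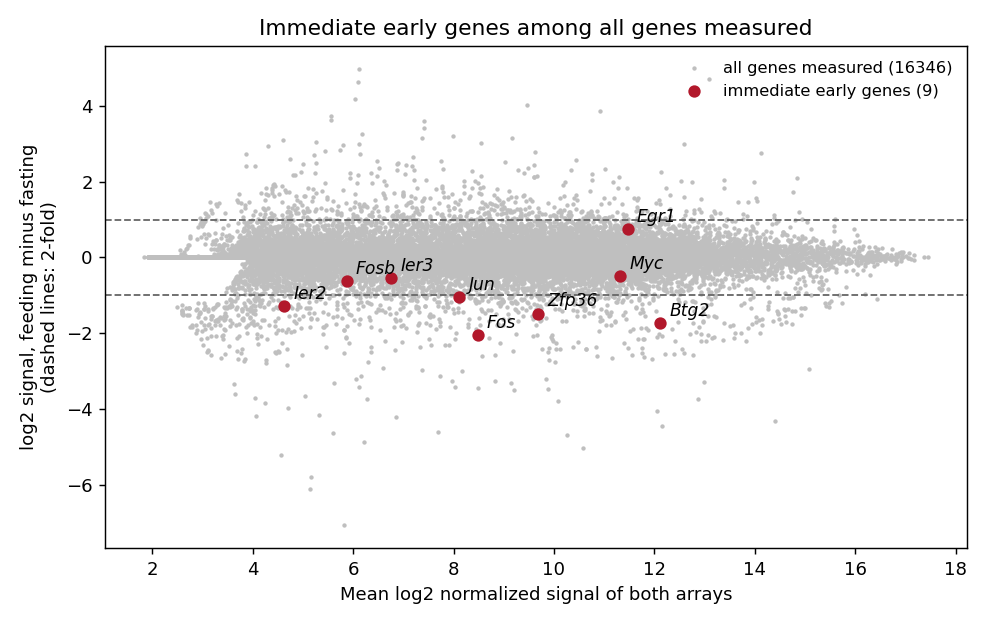
Log2 difference of every gene measured, feeding minus fasting, against its mean log2 normalized signal, with the 9 members in red; dashed lines are 2-fold. Fos, Btg2, Zfp36, Ier2 and Jun lie below the lower dashed line and Egr1 is the only member above 0; 1148 genes measured on 1 array whose bound gave under 1-fold are drawn at 0.

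Beyond the members, 8 lists of related genes were written from general knowledge, with earlier results of these data known. They held 177 genes in all, of which 166 were measured. Of those measured, 29 were at least 2-fold lower upon feeding and 12 at least 2-fold higher. The shares over all genes measured, 4.62% lower and 3.29% higher, stand beside the counts of each list below. Counts and medians of a list are descriptions, and the lists were not tested against other genes.

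The list closest in kind to the members was that of other immediate early genes. Of 53 listed, 49 were measured, 18 (36.7%) were at least 2-fold lower and 5 (10.2%) at least 2-fold higher, with a median of -0.56. A value below 0 was seen for 33 of the 49, and that of Fosl1 was a bound set to 0. Pim3, a survival kinase, went from a normalized signal of 2425 upon fasting to 372.8 upon feeding, a log2 difference of -2.70. Nr4a1, an orphan nuclear receptor that promotes gluconeogenesis, went from 1367 to 248.3, a difference of -2.46. Gadd45a, a stress sensor of growth arrest, went the other way, from 301.6 to 2060, a difference of 2.77. The other 4 genes of this list past 2-fold higher, picked out after their values were seen, were the transcriptional regulators Bhlhe40 (1.83), Id2 (1.47), Hes1 (1.37) and Klf10 (1.04). Besides Pim3 and Nr4a1, the lower ones ran from Cebpd (-2.14), a C/EBP factor, to Klf2 (-1.02). With median scaling in place of quantile normalization 13 were lower and 6 higher.

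The list thus held genes past 2-fold in both directions. Its zinc finger and growth arrest genes did not share 1 direction: Gadd45b and Gadd45g, the close relatives of Gadd45a, had log2 differences of -1.06 and -2.01. Zfp36l2 and Zfp36l1, the relatives of Zfp36 that bind the same AU-rich elements, had differences of -1.16 and 0.10. Btg1, the closest relative of Btg2, had -1.15. These relatives were picked out after their values were seen.

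Of the AP-1 partners, 14 of 15 were measured, 3 were at least 2-fold lower and 0 higher, with a median of -0.34. Among these were Jdp2, whose normalized signal went from 534.9 upon fasting to 107.0 upon feeding, and the bZIP factor Maff, from 530.2 to 229.8 (-1.21). Atf3, a stress-induced partner of Jun, had a difference of 0.50.

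All 39 of the listed kinases, receptors and transcription factors upstream of the members were measured, 2 were at least 2-fold lower and 0 higher, with a median of -0.01. Over all genes measured, 4.62% were lower and 3.29% higher by as much. The pair past 2-fold were the receptors Erbb3, from 201.4 to 21.8 (-3.21), and Egfr, from 11610 to 4331 (-1.42). Crem, a cyclic AMP responsive factor, was next with -0.90 and did not reach 2-fold. Srf had a difference of 0.57, its partner Elk1 of -0.01 and Creb1 of 0.08, and the activity of these factors was not measured. The Creb1 probe was in the dimmest group of genes, at 45.6 upon fasting and 48.2 upon feeding. The Elk1 probe was at 78777 and 78310, above the hepatocyte marker Ttr at 71216 and 70033. Whether that probe reports Elk1 alone was not tested.

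The feedback inhibitors, which switch off ERK signaling or are induced by it, were measured for 14 of 17, with 1 lower, 2 higher and a median of -0.02. Dusp1, the nuclear phosphatase of MAP kinases and itself an immediate early gene, was lower, from 8766 to 2055 (-2.09). Dusp6, the cytoplasmic ERK phosphatase, was higher, from 2130 to 5057 (1.25), and so was Spry4, an inhibitor of receptor signaling, from 107.0 to 254.8 (1.25).

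Around Myc, 13 of 14 genes of its dimerization network were measured, with 4 lower, 1 higher and a median of -0.12. Lower were Mxd1, a repressor that competes with Myc for Max, from 2114 to 473.2 (-2.16), Mycl, from 308.0 to 78.5 (-1.97), and Mga, from 407.4 to 157.9 (-1.37). The higher one was Mycn (1.22), in the dimmest group of genes, at 22.2 upon fasting and 51.6 upon feeding. The fourth lower one was Mlxip (-1.04), and both it and Mycn were picked out after their values were seen. Known Myc target genes lay on the other side. All 20 were measured, 0 were at least 2-fold lower, 3 were at least 2-fold higher, and the median was 0.34 with 1 value below 0. The value of Cad, well above background upon feeding only, was a bound set to 0. Srm, the spermidine synthase, went from 1163 to 4603 (1.98), Nop56, of the box C/D small nucleolar particles, from 2585 to 7345 (1.51), and Odc1, the first enzyme of polyamine synthesis, from 3465 to 7384 (1.09). The Myc signal itself was 1.40-fold lower, and its protein was not measured.

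Of the BTG/TOB family and the CCR4-NOT complex with which Btg2 works, all 16 were measured, 3 were lower, 1 was higher and the median was -0.15. Those lower were Btg1 and the family members Tob1, from 4847 to 1564 (-1.63), and Tob2, from 760.2 to 324.0 (-1.23). Prmt1, an arginine methyltransferase that binds Btg2, was higher, from 749.4 to 1698 (1.18). Of cytokine and related mRNAs known to be bound by TTP, 8 of 11 were measured and 0 passed 2-fold in either direction, with a median of 0.16. The most different of these were Ccl3 (0.74), Vegfa (0.43) and Lif (-0.38). Lif was in the dimmest group of genes, at 16.5 upon fasting and 12.7 upon feeding.

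**Figure D5:**
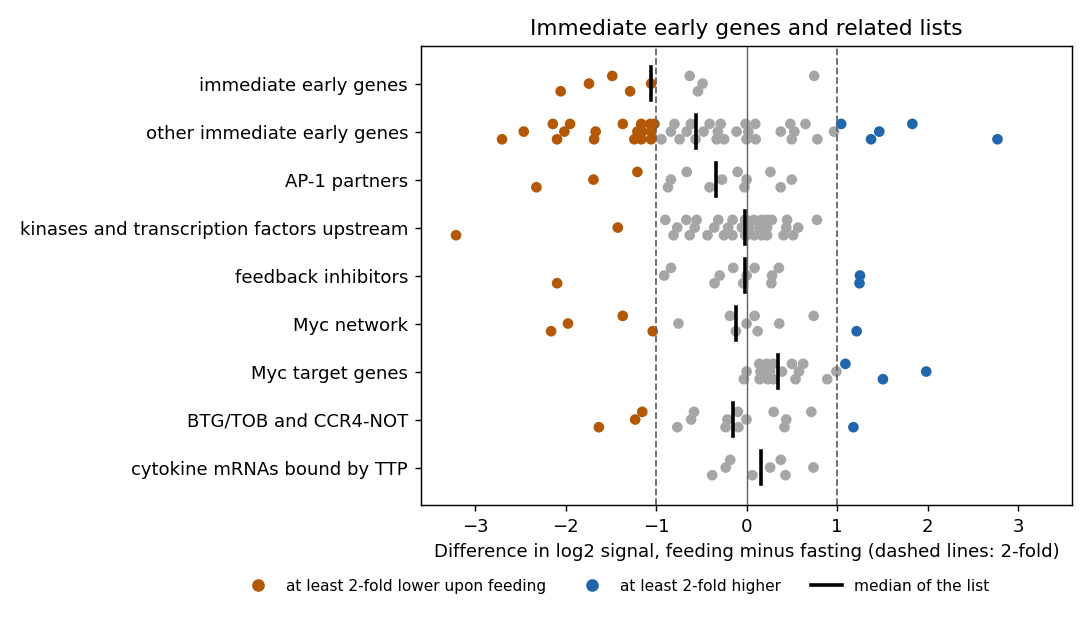
Log2 difference, feeding minus fasting, of each measured gene of the member set and of the 8 related lists, with the median of each list as a black bar and dashed lines at 2-fold. The medians are -1.05 for the members and -0.56 for the other immediate early genes, and 0.34 for the Myc target genes.

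Immediate early transcripts are found in many cell types of the liver, so markers of these cells were set beside the members. All 6 hepatocyte markers were measured and 0 were past 2-fold, with a summed normalized signal of 580150 upon fasting and 509495 upon feeding. Their median difference was -0.07. The values ran from -0.97 for Tat, whose signal went from 104878 to 53470, to 0.07. Of the 7 Kupffer cell markers 0 were past 2-fold, with a summed signal of 77256 upon fasting and 58761 upon feeding and a median difference of -0.22. Of the 5 endothelial markers 0 were past 2-fold, with 38868 and 29942 and a median of -0.35. The neutrophil markers, with 3 of 4 measured, had a summed signal of 1302 upon fasting and 2139 upon feeding. Over all 9 marker lists but that of hepatocytes, 33 of 37 markers were measured, 0 were at least 2-fold higher and 2 lower, which were Rgs5 of stellate cells and Cela2a of exocrine pancreas, and the median was -0.22. The part of cell makeup in the differences of the members was not tested.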

How the data were processed

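The authors pooled liver RNA of 3 mice per group, hybridized it to 1-colour Agilent arrays and extracted spots with Feature Extraction 11.0.1.1. The deposited values are intensities per spot, with the background subtracted in the processed signal and no normalization between arrays. The deposited value table was not used, since it holds the local background of the spot for 44397 of 44397 spots within a relative difference of 1e-06.

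Control spots and outlier spots (141 upon fasting, 149 upon feeding) were left out, the log2 processed signals of a probe's spots were averaged, and the arrays, which differed by -0.24 in median log2 signal, feeding minus fasting, were quantile normalized. No spot was saturated. Transcript identifiers matched 27218 of 39402 probes to RefSeq symbols of assembly GRCm38.p6, while the array design was annotated on mm9, so no probe position is given. A gene was represented by its probe of highest mean signal. Where a probe was well above background on 1 array, the difference was a bound against the higher of its own signal and the lowest signal well above background there (14.4 upon fasting, 6.55 upon feeding), and it was set to 0 where it came under 1-fold. This held for 1831 genes and no member. The spot error is the error that the scanner software gives for each signal, carried to the log2 difference.

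The 10 members were all named, with at most 3 genes of each related list, those with the largest difference among genes well above background on both arrays. A gene that this rule selects is not reported here. Other genes named were chosen after their values were seen. The members and lists were chosen with earlier results of these data known. As 10 alternatives, arrays were scaled by their 75th percentile or their median, or corrected by normexp with an offset of 50 on the median signal (limma 3.58.1, R 4.3.3), a gene's probes were averaged, the call on background was required on both arrays or not at all, bounds were dropped, outlier spots were kept, and the threshold was set at 1.5-fold or 3-fold. The procedure (Python 3.11.15) was tested on simulated data. The number of arrays limits the precision.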

Additional observations from a re-analysis of the deposited data

How the results depend on the processing

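All 9 members measured kept their direction under every setting. Averaging probes, changing the call on background and dropping bounds could not change the value of a measured member. Each had 1 probe, well above background on both arrays, so only scaling, normexp and keeping outlier spots could change it. After the normexp correction 3 members passed 2-fold in place of 5, with Ier2 and Jun lost, their median was -0.39, and 527 genes in all passed (312 lower, 215 higher). At 3-fold 2 members passed (Fos and Btg2), 18 related genes in place of 41 and 469 genes in all. At 1.5-fold 7 members passed, 6 lower and 1 higher, which was Egr1. With them were 69 related genes (47 lower, 22 higher) and 3451 genes in all (1737 lower, 1714 higher). Without a filter on dim probes 6 members passed, since Junb joined, and 2023 genes in all. Of all genes 756 were lower and 537 higher, but 649 and 717 with median scaling, which moved the median of all genes to 0.09, and 760 and 876 without bounds, so which direction held more genes depended on these settings, while 5 members were lower and 0 higher under both. Dim probes had the least signal over background, and Junb could not be measured. No paired analysis was possible because each group had 1 array.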
